A study of Mus musculus with 4 samples.

Results

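*Myog*-positive myoblasts after cell cycle exit were examined in single-cell RNA sequencing of fetal leg muscle. The cells were chosen by their own transcripts. A cell was taken if it held at least 3 unique molecular identifiers (UMIs, each standing for 1 captured transcript) of *Myog*, at most 2 of *Mki67* and *Top2a* together, none of *Pdgfra*, and less than 0.5% of its UMIs from 6 genes of the mature contractile apparatus (*Acta1*, *Ckm*, *Mylpf*, *Tnnc2*, *Tnnt3* and *Myl1*). This rule found 1319 of 36969 cells that passed the quality limits (3.57%). Because transcripts selected the cells, differences from other classes of cells are given as descriptions without a test, and tests are kept for the comparison of genotypes.

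*Myog* encodes myogenin, the transcription factor that acts when a myoblast stops dividing and starts to differentiate. Precursors before this step carry *Pax7* and *Myf5*, and *Myod1* accompanies commitment. After it, CDK inhibitors and the retinoblastoma protein keep the cell out of the cycle, the fusion proteins myomaker (*Mymk*) and myomixer (*Mymx*) appear, and the cell joins a myotube and builds sarcomeres, which in the fetus use cardiac isoforms such as *Actc1* and *Tnnt2*.

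The 4 libraries were made from leg muscle of E18.5 mouse fetuses. In 2 the fetuses were wild-type (WT), and in 2 they lacked *SYISL* (knockout, KO), whose transcript is a lncRNA lying in sense over an intron of *Synpo2*. The fetuses were littermates carried by *SYISL*-heterozygous dams, no treatment is listed for them, and the leg muscles of each fetus were collected separately. The sources used here do not state the strain or whether a library held 1 fetus or more. With that number unknown, p-values measure only the spread between these libraries, which may be technical. There were 285 myoblasts in the first WT library, 287 in the second, 359 in KO replicate 1 and 388 in KO replicate 2. Together they held 14519365 UMIs, with a median per cell between 10073 and 11769 in each library. Total UMIs per library ran from 109653824 to 126257094. *Xist* was read only in KO replicate 2 (4579 UMIs in the myoblasts), where 1.03% of myoblasts held a UMI of a Y-linked gene against 87.4% to 94.1% in the other libraries, so sex differed between libraries. Among the features none is called *SYISL*, and the knockout was not checked at the targeted transcript. Of 171 cell barcodes found in more than 1 library, 9 belonged to a myoblast and 0 to a myoblast in 2 libraries.

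The name of the cells was checked against the 4 markers that the rule did not use. *Mymx* was detected in 77.2% to 79.7% of the myoblasts of a library, *Mymk* in 62.1% to 69.9%, *Tnnt2* in 78.2% to 81.7% and *Actc1* in 98.9% to 99.7%. Free RNA sets a background for such shares, and in cells with at least 3 *Pdgfra* UMIs, which should lack these genes and had median depths of 10154 to 13228 UMIs, the shares were 1.46% to 2.40%, 0.770% to 1.08%, 3.08% to 3.72% and 17.1% to 27%. All 4 markers stood above that background in every library. Cells with all 4 numbered 771 (58.5%) and cells with none 6 (0.455%), and the median number of *Myog* UMIs was 44 in the former and 3.5 in the latter. Their median depths were 11667 and 6729.5 UMIs, and the part of depth in this difference was not tested. In GRCm38, *Myog* lies at chr1:134289989-134292548 (plus strand), *Mymx* at chr17:45600971-45602102 (minus), *Mymk* at chr2:27061636-27072179 (minus), *Tnnt2* at chr1:135836354-135852260 (plus) and *Actc1* at chr2:114047282-114053548 (minus), where it overlaps *A530058N18Rik* on the other strand.

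The limits of the rule cut through a range of cells. The 50 cells with exactly 3 *Myog* UMIs had 16.4 CPM (a gene's UMIs, summed over the cells and scaled to the same total in every class and library) of *Mymx* and 958 of *Actc1*, and the 76 cells with 2, just outside, had 19.8 and 681. At the contractile limit, 25 cells just inside had 1451 CPM of *Tnnt2* and 6251 of *Actc1*, beside 1834 and 6275 in 8 cells just outside. At the cell cycle limit, 46 cells inside had 1237 CPM of *Hmgb2*, a chromatin protein abundant in dividing cells, and 13 cells outside had 1868. *Mki67* and *Top2a* were both at 0 in 1105 myoblasts (83.8%), and the median myoblast held 34 *Myog* UMIs. *Myog* itself, which the rule used, stood at 2899.6 and 2993 CPM in WT and 3507 and 2889 CPM in KO.

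The myoblasts were set beside 1927 *Pax7*-positive progenitors without *Myog* and outside the cell cycle, 160 *Myod1*-high cells without *Myog* (110 of them also progenitors), 347 *Myog*-positive cells in the cell cycle and 89 *Myog*-positive cells rich in contractile transcripts. *Mymx*, the micropeptide that acts late in membrane fusion, stood at 546 and 501 CPM in WT and 591 and 494 CPM in KO myoblasts, and at 0.437 to 1.43 CPM in progenitors. *Mymk*, its partner in fusion, stood at 150.0 and 165 CPM in WT and 197 and 149 CPM in KO, and at 0.476 to 1.31 CPM in progenitors. Neither gene overlapped between the classes. Mean levels of *Mymx* were 0.774 CPM in *Myod1*-high cells, 219 in cycling *Myog*-positive cells, 533 in the myoblasts and 844 in contractile-rich cells. *Pax7* ran the other way, at 219 CPM in progenitors, 141 in *Myod1*-high cells, 26.2 in cycling *Myog*-positive cells, 13.1 in the myoblasts and 2.77 in contractile-rich cells. *Myod1* followed neither course, with 61, 368, 279, 185 and 50.2 CPM over the same classes. Progenitors were chosen by *Pax7* and *Myod1*-high cells by *Myod1*, so the levels of those genes there follow in part from the choice.

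**Figure D1:**
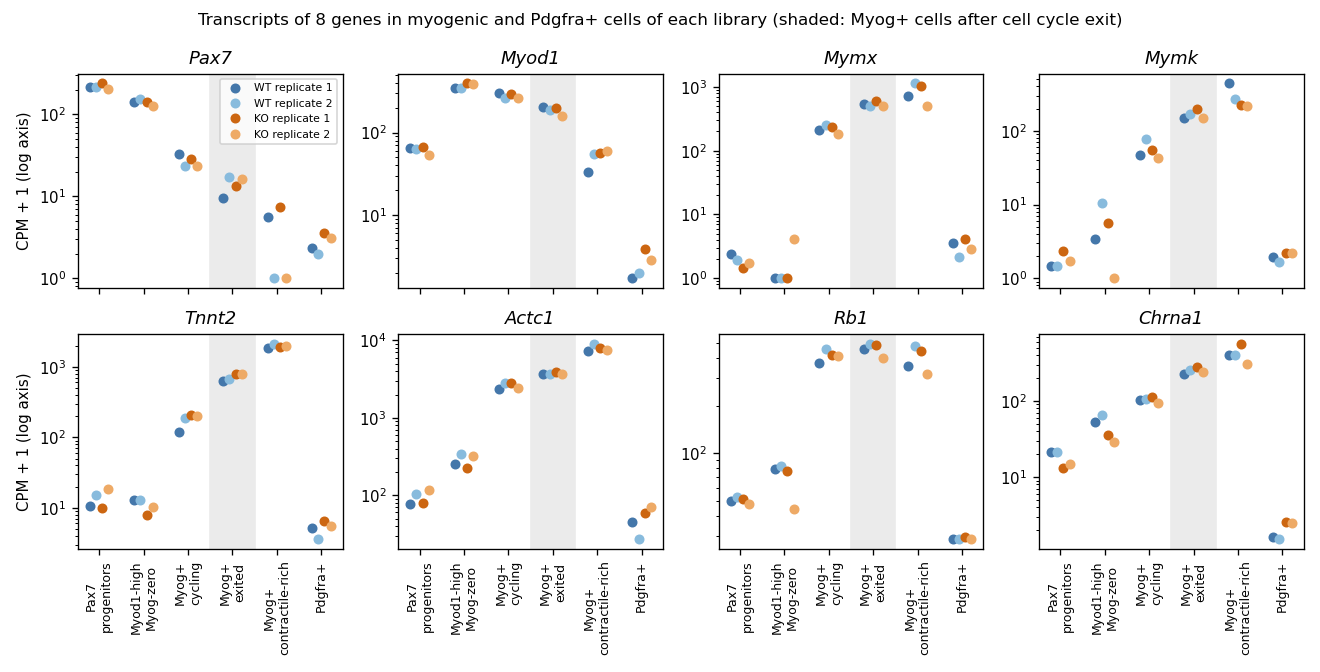
CPM plus 1 (log axis) of 8 genes in 6 classes of cells, with 1 point per library and the *Myog*-positive myoblasts after cell cycle exit shaded. *Mymx*, *Mymk*, *Tnnt2* and *Actc1* are higher in the shaded class than in *Pax7* progenitors in all 4 libraries, and *Pax7* is lower there (8.63 to 16.4 CPM). *Pax7* was used to choose the progenitors.

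By the ratio of mean CPM to that in progenitors (1 CPM added to both), the 20 highest genes of at least 50 CPM were *Mymx* (283-fold), *Mymk* (95-fold), *Klhl41* (82.2-fold), *Myo16* (79.8-fold), *Mylk4* (64.7-fold), *Tnni1* (58.9-fold), *Tnnt2* (53.0-fold), *2310043L19Rik*, *Trim55*, *Actc1*, *Casz1*, *Frmd4b*, *Gm28653*, *Dok7*, *Frmpd1*, *Spon1*, *Cnr1*, *Sept4*, *Prune2* and *Elmo1* (16.7-fold). All 4 myoblast libraries were above all 4 progenitor libraries for each of these 20 genes, which this ratio selected. *Klhl41*, a Kelch protein that stabilises nebulin in the thin filament, stood at 130.0 and 150.3 CPM in WT and 141 and 131 CPM in KO, and at 0.242 to 1.09 CPM in progenitors. *Tnni1*, the slow skeletal troponin I, stood at 149 and 182 CPM in WT and 249 and 222 CPM in KO, and at 1.67 to 3.86 CPM in progenitors. *Tnnt2*, the cardiac troponin T, stood at 624 and 664 CPM in WT and 801 and 776 CPM in KO, and at 8.95 to 17.4 CPM in progenitors. These 3 genes act at the thin filament, as does *Actc1*, the cardiac actin (3653 and 3735 CPM in WT and 3971 and 3661 CPM in KO, and 75.4 to 117 CPM in progenitors). *Mylk4*, a kinase of the myosin light chain kinase family, stood at 94 and 97.5 CPM in WT and 117 and 81.8 CPM in KO, and at 0.242 to 0.725 CPM in progenitors. *Myo16*, an unconventional myosin, stood at 143 and 151 CPM in WT and 138 and 126.1 CPM in KO, and at 0.238 to 1.45 CPM in progenitors. Neither gene belongs to the lists of contractile proteins. *Casz1*, a zinc finger transcription factor, was likewise higher than in progenitors. It stood at 128 and 143 CPM in WT and 143 and 118 CPM in KO, and at 1.69 to 3.33 CPM in progenitors. *Elmo1*, an adaptor in Rac activation, stood at 261 and 235 CPM in WT and 231 and 215 CPM in KO, and at 8.69 to 18.6 CPM in progenitors. *Dok7*, the adaptor that activates the receptor kinase MuSK, had a mean of 69.5 CPM in cycling *Myog*-positive cells, 73.6 in the myoblasts and 35.3 in contractile-rich cells, unlike *Tnni1*, which had 43.2, 200.3 and 1055 CPM.

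**Figure D2:**
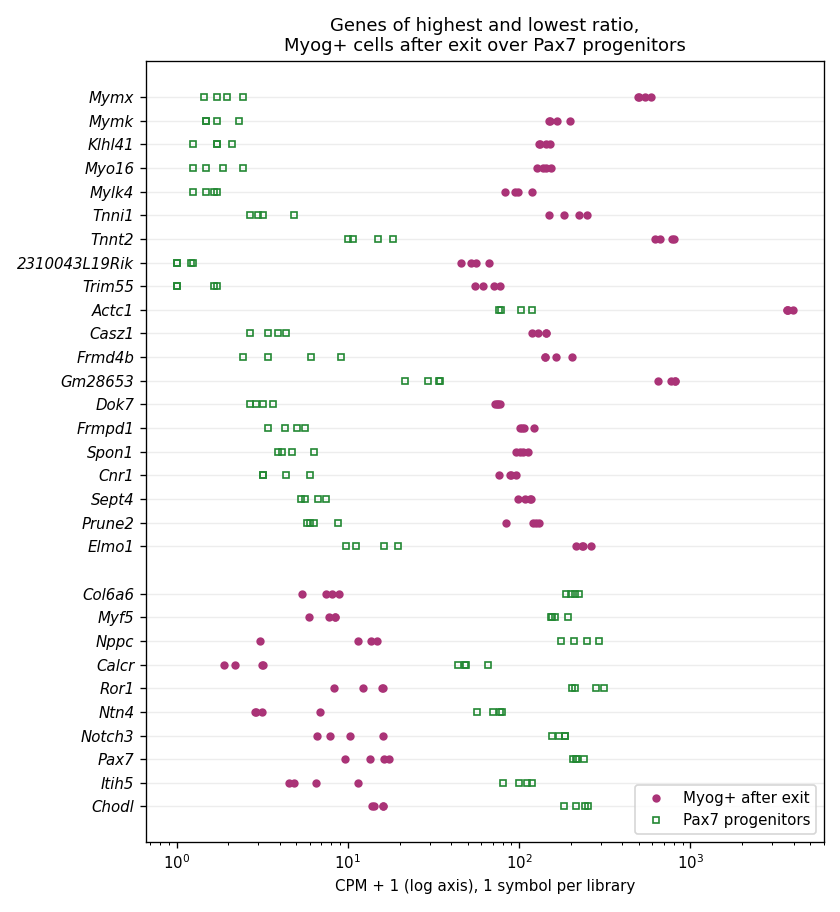
CPM plus 1 (log axis) of the 20 genes of highest and the 10 of lowest ratio in *Myog*-positive myoblasts after exit (filled circles) and *Pax7* progenitors (open squares), with 1 symbol per library. Circles and squares do not overlap for any of the 30 genes, from *Mymx* (283-fold higher) to *Chodl* (14.8-fold lower). The ratio selected these genes, and *Pax7* was also used to choose the progenitors.

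The 10 lowest genes were *Col6a6* (27.8-fold), *Myf5* (21.8-fold), *Nppc*, *Calcr*, *Ror1*, *Ntn4*, *Notch3* (17.0-fold), *Pax7*, *Itih5* and *Chodl*, also selected by the ratio and with libraries apart. *Pax7* was used to choose the progenitors, so its place here follows from that choice. *Myf5*, the myogenic factor of precursors, stood at 7.39 and 6.74 CPM in WT and 4.94 and 7.35 CPM in KO, and at 153 to 192 CPM in progenitors. *Notch3*, a receptor of precursors, stood at 15.1 and 5.57 CPM in WT and 9.34 and 6.87 CPM in KO, and at 155 to 185 CPM in progenitors. *Calcr*, the calcitonin receptor known from quiescent satellite cells, was 19.9-fold lower.

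Myogenic factors bind DNA at E-boxes, CANNTG, of which CAGCTG is a form that myogenin and MYOD1 favour. Windows of the 250 bases before an annotated start (RefSeq, GRCm38.p6) matched 14 of the 20 highest genes, in 23 windows. CANNTG was in 15 of these (65.2%) and in 66.2% of all 32851 windows. CAGCTG was in 7 (30.4%), and in 13.0% of all windows. Genes with several annotated starts gave more than 1 window, such as *Cnr1* and *Frmd4b* with 3 each, so the windows are not independent. *Actc1*, *Casz1* and *2310043L19Rik* held no CANNTG in their windows. Of the 11 windows of the 10 lowest genes, 2 held CANNTG and 0 CAGCTG. Both motifs read alike on either strand, and each CAGCTG also counts as a CANNTG. The windows below, 5′ to 3′ on the strand of the gene, show *Myog* itself and 4 genes that hold CAGCTG. *Tnni1* and *Klhl41* (thin filament) and *Mylk4* (a kinase) are among the 20 highest genes, whereas *Chrna1* (synapse) and *Myog* are not and add nothing to the counts above. Each window is printed only up to the first annotated exon base, which leaves 235 bases of *Myog*, with 1 of the 2 CANNTG of its whole window, and 231 bases of *Tnni1*. The *Tnni1* window precedes a RefSeq start that lies within the annotated span of the gene (chr1:135779434-135810989). Capitals mark each CANNTG in the printed bases.
*Myog*, chr1:134289754-134289988, plus strand: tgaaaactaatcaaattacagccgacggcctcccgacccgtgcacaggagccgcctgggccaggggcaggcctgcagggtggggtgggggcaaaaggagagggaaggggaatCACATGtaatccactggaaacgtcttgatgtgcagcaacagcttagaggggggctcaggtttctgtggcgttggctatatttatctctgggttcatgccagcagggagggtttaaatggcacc
*Tnni1*, chr1:135799171-135799401, plus strand: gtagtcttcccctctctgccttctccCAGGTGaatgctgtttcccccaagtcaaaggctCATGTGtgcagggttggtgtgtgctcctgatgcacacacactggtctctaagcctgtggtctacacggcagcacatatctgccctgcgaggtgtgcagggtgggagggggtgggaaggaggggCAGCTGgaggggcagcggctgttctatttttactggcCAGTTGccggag
*Klhl41*, chr2:69669870-69670119, plus strand: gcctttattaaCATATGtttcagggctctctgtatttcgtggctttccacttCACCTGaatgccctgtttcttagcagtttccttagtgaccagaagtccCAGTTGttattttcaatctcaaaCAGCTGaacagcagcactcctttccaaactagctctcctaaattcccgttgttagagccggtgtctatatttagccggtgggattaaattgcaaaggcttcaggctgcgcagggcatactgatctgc
*Mylk4*, chr13:32783965-32784214, minus strand: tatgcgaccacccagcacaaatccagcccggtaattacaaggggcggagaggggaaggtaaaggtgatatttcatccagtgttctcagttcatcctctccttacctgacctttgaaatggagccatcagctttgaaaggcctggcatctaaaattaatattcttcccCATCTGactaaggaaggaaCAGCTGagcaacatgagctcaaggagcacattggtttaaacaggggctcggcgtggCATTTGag
*Chrna1*, chr2:73580339-73580588, minus strand: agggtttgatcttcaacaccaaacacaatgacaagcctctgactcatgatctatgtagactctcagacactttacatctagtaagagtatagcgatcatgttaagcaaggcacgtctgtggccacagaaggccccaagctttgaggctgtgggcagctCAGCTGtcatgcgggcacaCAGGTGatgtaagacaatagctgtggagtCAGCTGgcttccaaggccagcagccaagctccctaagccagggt
A match of letters is a description and not a site. *Chrna1*, the ligand-binding subunit of the muscle acetylcholine receptor, stood at 223 and 253 CPM in WT and 276 and 238 CPM in KO, and at 12 to 20.2 CPM in progenitors.

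*Gm28653* (ENSMUSG00000099906), a long intergenic non-coding RNA at chr1:20669882-20684298 on the plus strand of GRCm38, stood at 767 and 812 CPM in WT and 807 and 644 CPM in KO, and at 20.5 to 33.6 CPM in progenitors. It was detected in 91.2% to 94.8% of myoblasts, 9.11% to 13.6% of progenitors and 0.527% to 1.43% of *Pdgfra*-positive cells. Its annotated exons overlap the hairpins of a pair of muscle microRNAs on the same strand, *Mir206* at chr1:20679010-20679082 and *Mir133b* at chr1:20682769-20682887. The mature arms below are from RefSeq (GRCm38.p6) and are shown because their host was among the 20 genes highest over progenitors. Capitals mark the seed, bases 2 to 8.
mmu-miR-206-3p: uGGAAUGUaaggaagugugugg
mmu-miR-133b-3p: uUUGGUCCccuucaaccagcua
The seeds differ, and the mature microRNAs were not measured. Mean levels of the host were 103 CPM in *Myod1*-high cells, 292 in cycling *Myog*-positive cells and 713 in contractile-rich cells.

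Contractile genes were mostly higher than in progenitors. Of 32 sarcomere proteins outside the rule, 17 were 2-fold or more above progenitors and 1 below, beside 5.13% and 12.1% of 8192 genes that summed to 20 CPM or more over both classes. The lists here and below had no such limit on level, and 19 of the 32 reached 10 CPM in the myoblasts. *Ttn*, the giant protein that spans the sarcomere, stood at 486 and 733 CPM in WT and 552 and 569 CPM in KO, and at 28.5 to 67.7 CPM in progenitors. *Tpm2* (beta-tropomyosin) had a mean of 711 against 172 CPM and *Tnnt1* (slow skeletal troponin T) 528 against 112 CPM, while *Tpm1* (alpha-tropomyosin) stood at 549 and 494 CPM. Of 15 assembly factors 11 were above and 0 below. They included *Cryab*, a small heat shock protein that protects filaments (1092 against 254 CPM), and *Hspb2* of the same family (119 against 16.8 CPM), but not *Hspb1* (97.3 and 103 CPM).

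Acetylcholine receptor and synapse genes were above progenitors for 6 of 11 and below for 0. *Musk*, the receptor kinase of the synapse, had a mean of 113 against 43.7 CPM, and *Rapsn*, which anchors the receptor, 35 against 62.5 CPM. In excitation-contraction coupling 7 of 17 were above and 0 below, with the calcium release channel *Ryr1* at 97.7 against 33.1 CPM and the adaptor *Stac3* at 46.2 against 4.65 CPM. The dystrophin complex had 2 of 13 above and 5 below, with *Dmd* itself at 149 against 450.2 CPM. Of 25 fusion and adhesion genes 7 were above and 6 below. *Jam3*, an adhesion molecule of the immunoglobulin family, had 417 against 73.6 CPM, whereas the small GTPases *Rac1* (186 and 205 CPM) and *Cdc42* (279.6 and 309 CPM) were at like levels.

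Among 16 genes of cell cycle exit, 3 were 2-fold or more above progenitors and 6 below. *Cdkn1c* (p57) stood at 8070.5 and 8569 CPM in WT and 8230.2 and 8729 CPM in KO, and at 4262 to 5089.9 CPM in progenitors, a difference of under 2-fold. *Cdkn1a* (p21) stood at 274 and 270.4 CPM in WT and 364 and 295 CPM in KO, and at 58.8 to 85.6 CPM in progenitors. *Rb1*, the retinoblastoma protein, stood at 455 and 488 CPM in WT and 480.1 and 399 CPM in KO, and at 46.4 to 51.7 CPM in progenitors. In cycling *Myog*-positive cells the latter pair had means of 321 and 413 CPM. *Ccnd1*, a cyclin of the G1 phase, had 28.3 against 68.7 CPM. Of 33 replication and mitosis genes, 15 were 2-fold or more below progenitors and 0 above, and their summed level was 1026 to 1129 CPM in the myoblast libraries, against means of 1902 CPM in progenitors and 10873 CPM in cycling *Myog*-positive cells.

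In the Notch pathway, 1 of 16 genes was above progenitors and 7 below. *Dll1*, a ligand, stood at 66.2 and 61.2 CPM in WT and 86.2 and 59.7 CPM in KO, and at 10.6 to 13.1 CPM in progenitors. *Hes1*, a Notch target, had a mean of 66.9 against 239 CPM, and the receptors *Notch1* (103 and 94.7 CPM) and *Notch2* (81.7 and 91.8 CPM) were at like levels. Of 19 myostatin and TGF-beta genes 0 were above and 6 below, as with *Fstl1* (55.6 against 173 CPM). Of 18 insulin-like growth factor and pleiotrophin genes 0 were above and 8 below, and *Igf1r*, the receptor, was 513 and 563 CPM. Of 20 regulators 5 were above and 8 below, with *Mef2a*, a partner of myogenin, at 437 against 135 CPM and *Id3*, an inhibitor of myogenic factors, at 223 against 1111 CPM. None of 14 Polycomb and deacetylase genes differed by 2-fold. Genes of the dissociation response were 2-fold or more below for 7 of 18, with *Fos* at 742 against 1891 CPM, and their part in these differences was not tested.

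The myoblasts varied with their *Myog*. They were divided into 203 cells with 3 to 9 UMIs of it, 193 with 10 to 19, 399 with 20 to 39 and 524 with 40 or more, whose median depths were 8929, 8881, 10409 and 12338 UMIs. Depth thus moved with *Myog*, and its part in the values below was not tested. CPM scales each bin by its own total. *Tnnt2* had means of 59.5, 182, 629 and 1094 CPM over these bins, *Mymx* 46.9, 148, 474 and 802 CPM and *Tnni1* 5.24, 22.8, 132 and 343 CPM. *Actc1* had 1288, 2316, 3744 and 4807 CPM. With 1 CPM added to both bins, the highest stood 3.73-fold over the lowest for *Actc1*, 18.1-fold for *Tnnt2* and 55.1-fold for *Tnni1*. Of these 4 genes *Actc1* varied least across the bins.

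Between the lowest and the highest bin, 15 of 19 sarcomere genes of at least 10 CPM were higher in the highest bin in all 4 libraries, as were 8 of 9 assembly factors and 6 of 8 synapse genes, beside 18.3% of 7876 genes at that level. *Chrna1* had 95.4, 137, 238 and 323 CPM, *Hspb2* 22.3, 54.1, 113 and 166 CPM and *Cdkn1a* 149, 162, 265 and 405 CPM over the bins. Lower in all 4 libraries were 19 of 23 replication and mitosis genes, 10 of 13 myostatin and TGF-beta genes and 9 of 13 Polycomb and deacetylase genes, beside 27.5% of all. *Pcna*, the replication clamp, had 203, 163, 72.3 and 32.6 CPM, so in the lowest bin it stood near its mean in progenitors (223 CPM). *Ezh2*, the Polycomb methyltransferase, had 180.4, 136, 94.6 and 69.4 CPM and *Pax7* 48.4, 20.4, 8.01 and 4.98 CPM. *Col3a1*, a marker of fibro-adipogenic progenitors (FAPs), had 498, 325, 153 and 154 CPM, and the part of RNA from other cells in these trends was not tested.

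**Figure D3:**
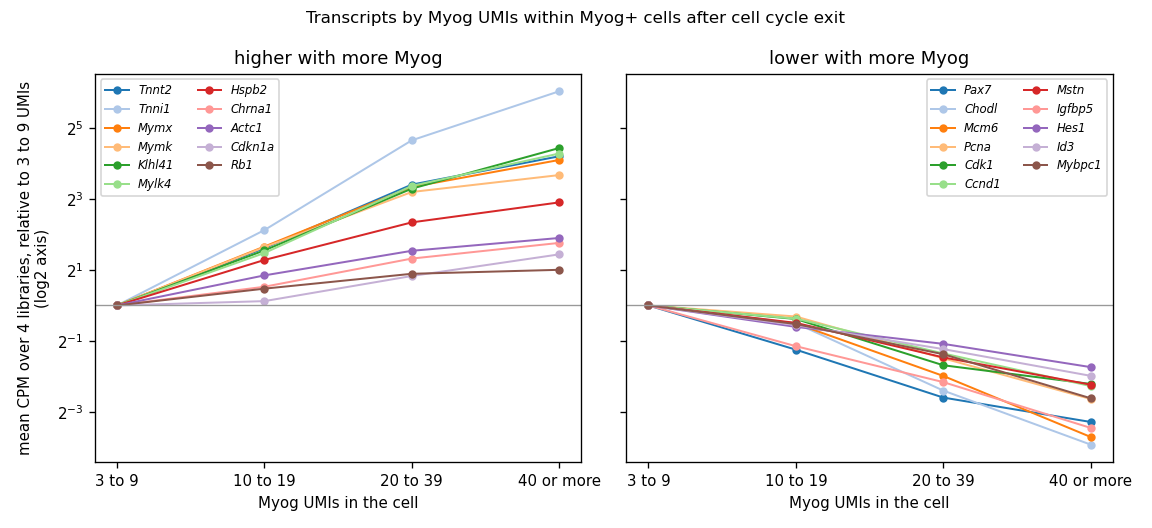
Mean CPM over 4 libraries of 22 genes, relative to myoblasts with 3 to 9 *Myog* UMIs (log2 axis), against *Myog* UMIs per cell in 4 bins. Genes on the left are higher with more *Myog*, from *Rb1* (259, 360.0, 481 and 520.1 CPM) to *Tnni1* (5.24, 22.8, 132 and 343 CPM), and genes on the right are lower, such as *Pax7* (48.4, 20.4, 8.01 and 4.98 CPM).

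Whether the knockout of *SYISL* went with a different share of these myoblasts was compared over libraries. They were 3.35% (exact 95% binomial interval 2.98% to 3.75%) and 3.51% (3.12% to 3.93%) of kept cells in WT and 3.66% (3.30% to 4.05%) and 3.71% (3.36% to 4.09%) in KO, with intervals that cover counting error only. Neither WT library reached the lower KO library, with means of 3.43% ± 0.115 in WT and 3.68% ± 0.0366 in KO (SD, n = 2 each). By exact permutation of the libraries (two-sided) p was 0.33, which is the least that this design allows, so it cannot reach 0.05. With cells thinned to 5000 UMIs (510, 392, 730 and 891 shallower cells left out), the shares were 3.32% and 3.53% in WT and 4.02% and 3.95% in KO, again with an exact permutation p = 0.33. Thinning also changed which cells met the limits of the rule. Of the cells deep enough to be thinned, 276 and 281 in WT and 345 and 373 in KO met it before thinning, and 266 and 275 in WT and 365 and 378 in KO after it. Of all *Myog*-positive, *Pdgfra*-negative cells, the myoblasts were 75.0% and 78.0% in WT and 75.7% and 72.7% in KO, which overlapped (exact permutation p = 0.667). The share of myoblasts with 40 or more *Myog* UMIs also overlapped, at 37.9% and 43.9% in WT and 44.3% and 33.8% in KO. A share of kept cells also depends on the other cells kept. *Pdgfra*-positive cells were 30.77% and 30.19% of them in WT and 27.85% and 24.69% in KO. Cycling *Myog*-positive cells were 0.810% and 0.807% in WT and 0.927% and 1.16% in KO, while progenitors overlapped. The part of these cells in the share of myoblasts was not tested.

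**Figure D4:**
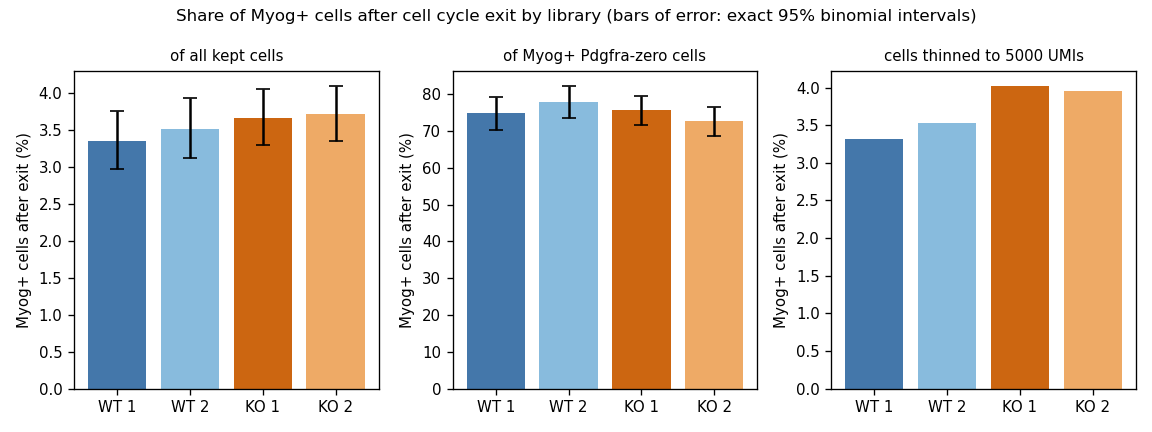
Percent of kept cells, of *Myog*-positive *Pdgfra*-negative cells and of cells thinned to 5000 UMIs that were *Myog*-positive myoblasts after exit, 1 bar per library, with exact 95% binomial intervals in the first 2 panels. Both KO bars are above both WT bars among kept cells (3.66% and 3.71% against 3.35% and 3.51%), and their intervals overlap.

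Expression in KO and WT myoblasts was compared on UMIs summed per library. Of 10910 genes tested with edgeR, 3 passed an adjusted p of 0.05, with 2 higher in KO (0.0183% of the genes tested) and 1 lower (0.00917%), while 257 were higher and 239 lower at an unadjusted p below 0.05. All 3 are known as markers of other cell types. *Col3a1*, a collagen of fibroblasts and FAPs, stood at 137 and 144 CPM in WT and 264 and 323 CPM in KO (log2 fold change 1.09 with SE 0.11, adjusted p = 0.0146 by edgeR). *Fabp4*, a fatty acid carrier of endothelial and fat cells, stood at 56.1 and 45.1 CPM in WT and 135 and 229 CPM in KO (log2 fold change 1.87 with SE 0.23, adjusted p = 0.0437 by edgeR). *Mcpt4*, a mast cell protease, stood at 15.7 and 31.9 CPM in WT and 1.92 and 0.237 CPM in KO (log2 fold change -4.48 with SE 0.56, adjusted p = 0.0437 by edgeR). The genotypes did not overlap for any of the 3, as with 14.6% of all genes tested on the higher side and 19.3% on the lower, and *Col3a1* and *Fabp4* rose in KO while *Mcpt4* fell.

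Marker lists of those cell types moved with these genes. The FAP list holds *Col3a1* and the mast cell list *Mcpt4*, so their counts and sums below include these called genes. All 7 FAP markers were higher in KO with an unadjusted p below 0.05, and their summed level was 386 and 576 CPM in WT and 686 and 1206 CPM in KO, beside a mean of 28265 CPM in *Pdgfra*-positive cells. All 5 endothelial markers were likewise higher, with sums of 29.6 and 31.3 CPM in WT and 61.0 and 62.3 CPM in KO, and *Kdr*, which defines endothelium, was at 0 in WT replicate 2. The 3 macrophage markers tested were lower (list sums of 57.6 and 15.8 CPM in WT, 11 and 3.32 CPM in KO), as were 3 mast cell markers, whose list sums overlapped (133 and 326 CPM in WT, 191 and 8.30 CPM in KO). Of 3 glial markers tested 2 were higher, and smooth muscle, tenocyte, chondrocyte and erythroid markers had 0 of 13 with an unadjusted p below 0.05. Myoblasts over a limit for such markers (more than 0.3% of UMIs from FAP markers, or at least 3 UMIs of another list) numbered 66 (5.00%), with 14 and 16 in WT and 13 and 23 in KO, and 20 in KO replicate 2 were over the FAP limit against 1 to 4 in the other libraries. Without these 66 cells, 0 of 10574 genes passed with edgeR (225 higher and 260 lower at an unadjusted p below 0.05), and *Col3a1* had a log2 fold change of 0.18. That step removes cells by *Col3a1* and *Mcpt4* themselves, so it lowers their difference by construction.

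Of the markers of the myoblasts, *Tnnt2* stood at 624 and 664 CPM in WT and 801 and 776 CPM in KO (log2 fold change 0.31 with SE 0.07, adjusted p = 0.491 by edgeR), which did not pass, although both KO libraries were above both WT libraries, as for 14.6% of all genes tested. *Mymx*, *Mymk* and *Actc1* overlapped, with log2 fold changes of 0.07 (SE 0.09), 0.15 (SE 0.12) and 0.07 (SE 0.07). The genes of smallest p that did not pass and did not overlap were *Cav1*, *Cck*, *Tnni1*, *Pcdh17* and *Dcn* on the side of KO, and, among others, *Nell1*, *Adamts12*, *Car3* and *Robo1* on the side of WT. *Tnni1* stood at 149 and 182 CPM in WT and 249 and 222 CPM in KO (log2 fold change 0.53 with SE 0.10, adjusted p = 0.387 by edgeR), and had 0.53 without the 66 cells as well. *Cck*, the gene of cholecystokinin, stood at 142 and 142 CPM in WT and 194 and 187 CPM in KO (log2 fold change 0.45 with SE 0.08, adjusted p = 0.327 by edgeR), and had 0.46 without them. *Cav1*, a caveolar protein abundant in endothelium, had 1.29 with and 0.12 without them, and *Dcn*, a proteoglycan of fibroblasts, 1.43 and 0.25. *Dcn* is among the markers by which the cells were removed, so its fall follows from the removal. *Cav1* is not, but cells over the limit for endothelial markers were removed too. *Pcdh17*, a protocadherin, stood at 8.01 and 4.10 CPM in WT and 19.2 and 14.9 CPM in KO (log2 fold change 1.51 with SE 0.31, adjusted p = 0.445 by edgeR). *Nell1* stood at 20.6 and 17 CPM in WT and 9.06 and 10.7 CPM in KO (log2 fold change -0.90 with SE 0.22, adjusted p = 0.785 by edgeR), and *Robo1*, a receptor of Slit proteins, at 52.7 and 51.6 CPM in WT and 32.1 and 37.9 CPM in KO (log2 fold change -0.55 with SE 0.14, adjusted p = 0.86 by edgeR).

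By list, no gene of the myogenic, cell cycle or signalling lists passed, and the median log2 fold change of all genes was 0.00112. Of all genes tested outside the rule, 50.2% were higher in KO. Of 16 cell cycle exit genes 13 were higher in KO, with a median of 0.20, and 7 had both KO libraries above both WT libraries, beside 14.6% of all genes. Unadjusted p by edgeR was below 0.05 for *Btg2*, *Cdkn1a*, *Cdkn2d*, *Gadd45g* and *Cdkn2c*, all higher in KO, beside 257 of 10910 genes higher at that level. *Btg2*, an antiproliferative gene that also responds early to stimuli, had 453 and 468 CPM in WT and 656 and 496 CPM in KO (log2 fold change 0.34 with SE 0.11, adjusted p = 0.96 by edgeR). *Cdkn1a* had 274 and 270.4 CPM in WT and 364 and 295 CPM in KO (log2 fold change 0.29 with SE 0.10, adjusted p = 0.96 by edgeR). KO replicate 1 was the higher KO library for both. Without the 66 cells 13 of 16 were again higher, with a median of 0.15. Of 12 assembly factors tested 11 were higher (median 0.14), none with an unadjusted p below 0.05. Sarcomere proteins divided into 12 higher and 13 lower of 25, and *Myh8*, the perinatal myosin heavy chain, had 23.4 and 29.9 CPM in WT and 17.6 and 19.2 CPM in KO (log2 fold change -0.51 with SE 0.18, adjusted p = 0.96 by edgeR). Synapse genes had 3 higher of 9 (median -0.11), fusion and adhesion genes 13 of 22 (median 0.06), replication and mitosis genes 20 of 32 (median 0.07), Notch genes 7 of 15 (median -0.06) and Polycomb and deacetylase genes 6 of 14 (median -0.03). Genes of the dissociation response had 11 of 18 (median 0.05), and their part in the values above was not tested.

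**Figure D5:**
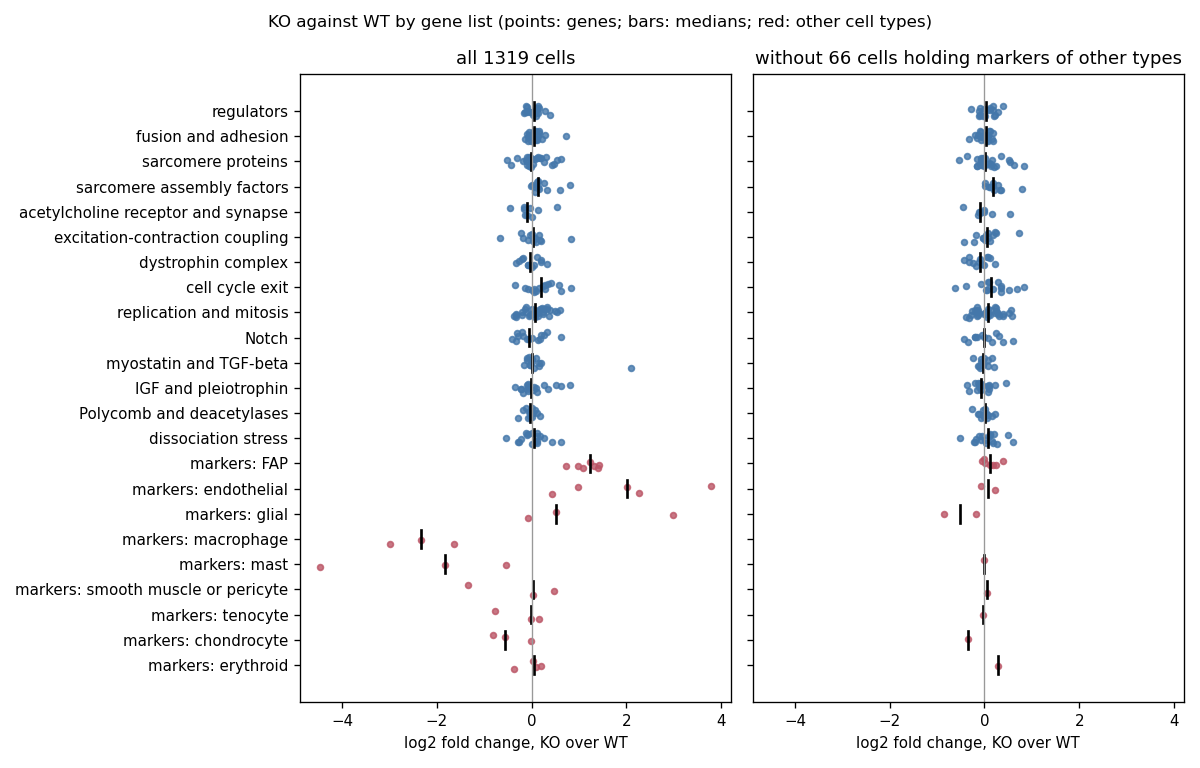
Log2 fold change of KO over WT for each tested gene of a list (points) and the list median (bars), in all 1319 myoblasts (left) and without 66 cells holding markers of other cell types (right). Myogenic, cell cycle and signalling lists (blue) have medians between -0.11 and 0.20 on the left, and FAP markers (red) have a median of 1.25 on the left and 0.12 on the right. The red lists were used to remove the cells, so changes in them follow in part from the removal.

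Genes that the study discusses were read in the myoblasts, and none passed. The study reports *Notch2*, *Notch3*, *Myh3* and *Myh8* as pseudotime trends over all myogenic cells, both myosins being higher in late KO stages. Its *Igf1r*, *Ptn*, *Sdc2* and *Sdc4* results are inferred signalling, and HDAC1 was measured as protein. For *Mstn*, *Tgfbr1* and *Acvr2a* the study reports no significant change in mRNA. Cells rich in contractile transcripts lie outside the rule, and late stages were not tested. *Myh8*, given above, was lower in KO here without passing. *Notch2* had 81.6 and 93.7 CPM in WT and 68.9 and 82.5 CPM in KO (log2 fold change -0.19 with SE 0.12, adjusted p = 0.96 by edgeR), and *Notch3* a log2 fold change of -0.33 (SE 0.42). *Mstn* (myostatin) had -0.04 (SE 0.17), and its receptors *Tgfbr1* and *Acvr2a* had -0.09 (SE 0.09) and -0.03 (SE 0.10). *Myh3*, the embryonic myosin heavy chain, had 0.13 (SE 0.24), *Igf1r* -0.07 (SE 0.07), *Hdac1* -0.11 (SE 0.12), the growth factor *Ptn* 0.35 (SE 0.22) and its syndecan receptors *Sdc2* and *Sdc4* -0.10 (SE 0.21) and -0.21 (SE 0.15). *Synpo2*, the host gene of *SYISL* (chr3:123076519-123236149, minus strand, GRCm38), had 10.5 and 12 CPM in WT and 11.3 and 7.11 CPM in KO (log2 fold change -0.28 with SE 0.28, adjusted p = 0.962 by edgeR). With 2 libraries a genotype, differences of the size of these errors could not be told from the spread between libraries.

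Whether the genotype effect differed between the myoblasts and *Pax7* progenitors was tested by an interaction term. Of 12324 genes 7 passed with edgeR (0.0568%), namely *Col3a1*, *F13a1*, *Ucma*, *Lyz2*, *Tyrobp*, *C1qa* and *Ntrk3*, and none is in a myogenic list. *Col3a1* was 137 and 144 CPM in WT and 264 and 323 CPM in KO myoblasts, and 662 and 579 CPM in WT and 618 and 593 CPM in KO progenitors (interaction log2 1.08, SE 0.12, edgeR adjusted p = 0.00518). Its KO and WT progenitor libraries overlapped, unlike those of the myoblasts. Without cells holding markers of other types in either class, 0 of 11870 genes passed with edgeR (216 higher and 250 lower at an unadjusted p below 0.05). Those cells were removed by *Col3a1*, *C1qa* and *Lyz2* among their markers, so the loss of these calls follows from the removal itself.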

How the data were processed

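Leg muscle cells of 2 WT and 2 *SYISL* KO libraries were captured with the 10x Chromium 3′ v3 chemistry after trypsin and DNase digestion. The authors made UMI counts per gene and cell with Cell Ranger 7.2.0 on mm10, and these deposited counts were not normalised. Whether intronic reads were counted was not given in the sources used here. Of 41741 deposited cells, 36969 passed limits on genes (1000 to 6000), UMIs (1000 to 25000) and the mitochondrial share (under 8%). Doublets were limited by these bounds alone, and Scrublet called 3 and 2 myoblasts in WT and 5 and 13 in KO. Cells were grouped by raw UMIs as described, with at least 1 *Pax7* UMI for progenitors, 3 of *Myod1* for *Myod1*-high cells and 3 of *Pdgfra* for *Pdgfra*-positive cells. Members and gene lists were chosen with earlier results of these data known.

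The UMIs of a class were added up within each library, and edgeR 4.0.16 tested these sums (TMM, quasi-likelihood, filterByExpr, Benjamini-Hochberg adjustment over all genes tested) in R 4.3.3, between genotypes without a replicate block. Levels are CPM from summed UMIs, not scaled by length. The interaction was fitted over the myoblast and progenitor sums of the 4 libraries with the library as a block, since each library gave both sums. Shares were compared by exact two-sided permutation tests (scipy 1.17.1). The edgeR step was tested on simulated data of 10910 genes with 200 changed 2-fold, of which 87% were recovered, all in the right direction, and 14.3% of calls were false. Alternatives covered the limits of the rule, cell and gene filters, doublets, normalisation, DESeq2 1.42.0, the block and left-out libraries.

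Named genes were the markers and genes of the rule, up to 6 members of each list by mean CPM, the genes of highest and lowest ratio to progenitors, called genes or else those of smallest p that did not overlap, and genes the study discusses. *Cdkn2d*, *Gadd45g* and *Cdkn2c* were named after their values were seen. A gene that the rule names is not reported here.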

Additional observations from a re-analysis of the deposited data

Results flagged for a closer look

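For 7 genes the difference between KO and WT was not the same in the myoblasts as in *Pax7* progenitors by the edgeR interaction test. The KO effect in the myoblasts minus that in progenitors was 1.08 for *Col3a1*, -5.01 for *F13a1*, 6.21 for *Ucma*, -5.61 for *Lyz2*, -4.46 for *Tyrobp*, -6.04 for *C1qa* and 5.99 for *Ntrk3* on the log2 scale. *C1qa*, *Lyz2*, *Tyrobp* and *F13a1* are known from macrophages and *Ucma* from cartilage. Most of their levels were low, with *C1qa* at 24.0 and 3.51 CPM in WT and 3.02 and 0.474 CPM in KO myoblasts, and *Ntrk3* at 0 and 0.293 CPM in WT and 4.39 and 4.5 CPM in KO myoblasts. In progenitors *C1qa* stood at 0.476 and 2.18 CPM in WT and 19.7 and 5.07 CPM in KO. *Ntrk3* stood there at 5.95 and 8.22 CPM in WT and 1.75 and 3.86 CPM in KO. For both genes the term thus holds differences in both classes. Without cells holding markers of other types, 0 of 11870 genes passed with edgeR. *Col3a1*, *C1qa* and *Lyz2* are among the markers by which those cells were removed, so that count is no test of their part, which was not tested.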

How the results depend on the processing

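The share of myoblasts among kept cells was higher in KO under every alternative run (differences of 0.173 to 0.336 percentage points with a library left out), and the share among *Myog*-positive cells was lower (from -3.84 to -0.018). The number of genes called with edgeR moved from 3 to 1 with *Myog* of at least 2 UMIs, to 5 with the contractile limit at 0.25%, to 1 with it at 1%, to 5 with *Mki67* and *Top2a* at 0, to 6 with a looser cell filter, to 1 with a mean of at least 10 CPM, to 115 with no filter on low genes and to 0 without the cells holding markers of other types, an alternative added after seeing the data. Leaving out a library gave 1 to 50, with 1 without WT replicate 1, 1 without WT replicate 2, 7 without KO replicate 2 and 50 without KO replicate 1, where the lone library of an arm is taken to vary like the other group. DESeq2 called 3 genes, of which 2 were among the 3 of edgeR. Interaction calls moved from 7 to 1 with *Myod1*-high cells in place of progenitors, to 16 without Scrublet doublets, to 0 without cells holding markers of other types, and to 1 to 136 with a library left out (1 without WT replicate 1, 14 without WT replicate 2, 136 without KO replicate 1, 47 without KO replicate 2). The cause of these moves was not tested.

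With the replicate number as a block, 44 genes were called (27 higher, 17 lower). The labels do not say that a number marks a shared fetus or day. Deviations of same-numbered libraries from their group means correlated at r = -0.102 over 7734 genes, and those of crossed numbers at 0.102. With 2 libraries a genotype the latter value mirrors the former by construction. This correlation cannot tell whether the numbers pair the libraries. With the numbers crossed, a pairing added after seeing the data, the block called 3 genes.

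Over 30 named genes and their alternatives, 514 of 568 values kept their direction and side of the threshold, 21 passed it, 17 no longer passed it and 16 turned direction. *Acvr2a* turned to 0.0148 with *Myog* of at least 2 UMIs, *Notch3* to 0.0340 and *Sdc2* to 0.0532 with at least 5, and *Sdc2* to 0.0646 with *Mki67* and *Top2a* at 0. With a library left out, log2 fold changes ran from -0.90 to 0.57 for *Notch3*, -0.23 to 0.64 for *Myh3*, -0.0550 to 0.19 for *Mymx*, -0.0794 to 0.0171 for *Acvr2a*, -0.37 to 0.12 for *Sdc2*, -0.0540 to 0.33 for *Mymk*, -0.17 to 0.0698 for *Mstn*, -0.14 to 0.71 for *Ptn* and -0.63 to 0.0152 for *Synpo2*. *Col3a1* was called in 15 of 19 alternatives, *Fabp4* in 12 of 19 and *Mcpt4* in 12 of 18. With 2 libraries a genotype, sex not balanced and the number of fetuses in a library not stated, small differences are beyond these data.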
